A study of Mus musculus with 8 samples.

Results

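The cone set held 9 genes of the light response of cone photoreceptors: the opsins Opn1sw and Opn1mw, the transducin subunits Gnat2 and Gngt2, the phosphodiesterase subunits Pde6c and Pde6h, the channel subunits Cnga3 and Cngb3, and the cone arrestin Arr3. Its members were the array probes whose accession in the files belongs to 1 of these genes in the RefSeq gene table. The rule itself uses no measured value. The 9 are among 22911 genes that the table names on the array. They had 17 of its 56605 probes, with 2 probes for every gene except Gnat2, which had 1. The retinas came from mice of 46 to 55 weeks. One group was homozygous for the knockout of Mrp4 (gene symbol Abcc4), an efflux transporter of the cell membrane, and the other was wild-type (WT), with 4 samples in each group. The study's methods give 3 mice as the source of the tissue and do not say whether a sample was 1 retina, 1 mouse or a pool, so the spread between samples may be partly technical. Each sample was hybridised alone, in 1 colour, to an Agilent mouse gene expression array. All 8 arrays lay on 1 slide, and each genotype had a row of the slide to itself, so row and genotype cannot be told apart.

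Cones serve daylight and colour vision and are a small minority of photoreceptors in the mouse retina, where rods prevail. Light changes the shape of a cone opsin, the opsin activates cone transducin, transducin releases a phosphodiesterase from its inhibitory subunit, and the enzyme lowers cGMP so that the cyclic nucleotide-gated channel closes. Arrestin then binds the phosphorylated opsin and ends the response. Most mouse cones make both opsins, with the short-wavelength opsin dominant in ventral retina and the middle-wavelength opsin in dorsal retina.

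The 3 promoters below are those of both opsins, the light sensors on which the set is built, and of Arr3, the gene with the largest difference between genotypes in the set. They are the 250 bases before the transcript start in RefSeq, in the GRCm38.p6 build, written 5′ to 3′ on the gene's strand. Capitals mark TAATC or its reverse complement GATTA, the core letters bound by the photoreceptor factor Crx. Opn1sw is at chr6:29380514-29380763 on the minus strand, Opn1mw at chrX:74127216-74127465 on the plus strand and Arr3 at chrX:100605247-100605496 on the plus strand.
Opn1sw: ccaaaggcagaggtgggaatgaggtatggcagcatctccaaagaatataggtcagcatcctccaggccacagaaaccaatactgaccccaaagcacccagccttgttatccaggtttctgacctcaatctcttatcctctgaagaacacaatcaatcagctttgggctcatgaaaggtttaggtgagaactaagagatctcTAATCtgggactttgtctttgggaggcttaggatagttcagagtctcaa
Opn1mw: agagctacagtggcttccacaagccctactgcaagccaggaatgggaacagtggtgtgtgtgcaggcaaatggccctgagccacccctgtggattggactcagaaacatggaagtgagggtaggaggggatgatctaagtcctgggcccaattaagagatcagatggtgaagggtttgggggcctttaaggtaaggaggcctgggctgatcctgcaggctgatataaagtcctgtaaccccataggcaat
Arr3: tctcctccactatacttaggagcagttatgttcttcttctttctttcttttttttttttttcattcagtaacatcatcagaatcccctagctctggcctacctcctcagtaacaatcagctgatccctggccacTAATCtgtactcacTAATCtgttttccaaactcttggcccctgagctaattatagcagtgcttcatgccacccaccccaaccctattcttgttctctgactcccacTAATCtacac
Arr3 held the letters 3 times, starting 116, 102 and 10 bases before the transcript start, and Opn1sw held them once, 49 bases before it. The Opn1mw window had no match to TAATC and had TATAAA 28 bases before the start. The RefSeq promoter table listed 7 promoters of 6 of the 9 genes, and TAATC on either strand was present in 3 of the 7 (Opn1sw, Gnat2 and Arr3), against 19.8% of the 32851 promoters in the table. AGGTCA, letters to which thyroid hormone and retinoid receptors bind, occurred on either strand in 1 of the 7, that of Opn1sw, and in 14.0% of all promoters. TATAAA occurred in 2 of the 7 and in 12.4% of all. Of 7 promoters listed for genes of the rod light response, 5 held TAATC, 3 AGGTCA and 2 TATAAA. The presence of TAATC was therefore not particular to cone genes. These matches describe the letters in a window and were not measured on the arrays.

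Between 66.0 and 69.9% of an array's probes stood clear of background, the upper quartile of its signal lay between 497 and 786, and no probe was saturated. Levels below are log2 intensities after quantile normalization, and differences are Mrp4-null minus WT. The check of the targeted gene went against the labels, since Abcc4 was at 10.75 ± 0.09 (SD, n = 4) under the null label and 6.83 ± 0.29 (SD, n = 4) under the WT label, a log2 difference of 3.92 (limma, adjusted p = 1.36e-05). The part of the transcript that the knockout removes was not looked up against the probe, so whether the probe reads the altered allele was not tested. The null samples are therefore called the arrays labelled Mrp4-null, and every direction below rests on those labels. The sexes represented also differed. No probe of the Y-linked genes Kdm5d, Eif2s3y, Uty and Ddx3y stood above background on a null array or on WT 1. Each of these genes had a probe above background on WT 2, WT 3 and WT 4, although 1 of the Kdm5d probes was so only on WT 3 and WT 4. Xist stood above background on all 4 null arrays and on WT 1 and WT 2, so that WT 2 carried both. Opn1mw and Arr3 lie on the X chromosome, so this is set beside their values.

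All 17 probes were well above background on all 8 arrays, so cone transcripts were detected in every sample and all probes entered the test. A call asked for both a 1.5-fold difference and a Benjamini-Hochberg adjusted p under 0.05 in limma. The rule was met by 0 of the 17 and by 0.545% of the 37085 retained probes. The local pooled error test, which the study's methods name, called 0 of the 17 and 0.623% of all. At an unadjusted limma p under 0.05 there were 2 probes, both of Arr3 and both higher in the arrays labelled Mrp4-null, against 6.46% of all probes, 3.52% higher and 2.94% lower. A difference of 1.5-fold, whatever its p, was reached by 0 of the 17 and by 1.88% of all. The 17 log2 fold changes ran from -0.27 to 0.34 with a median of -0.06, and the median over all retained probes was -0.01. Of the 17 probes, 11 were lower in the arrays labelled Mrp4-null, or 64.7%, against 53.2% of all. The precision was fair, as 15 of the 17 had a 95% interval wholly within a 1.5-fold change in either direction, and the exceptions were the dimmer probes of Pde6c and Pde6h. In whole retina, fewer cones and less RNA per cone cannot be told apart.

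**Figure D1:**
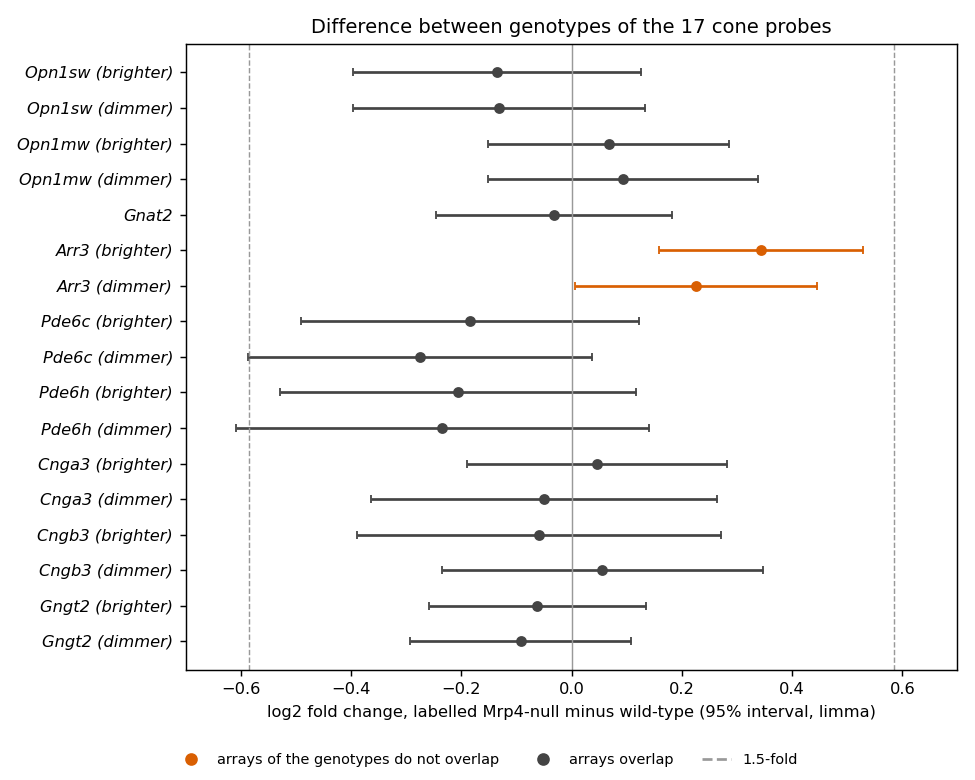
Log2 fold change, Mrp4-null minus wild-type, under the labels, of each of the 17 cone probes with its 95% confidence interval from limma (points and bars); dashed lines mark 1.5-fold in either direction. All points lie between -0.27 and 0.34, and the intervals of the Arr3 probes are the only ones that exclude 0.

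Both opsins were close between the genotypes, with small differences of opposite sign. For the short-wavelength opsin Opn1sw, the brighter probe (A_66_P121476) was at 15.61, 15.39, 15.25 and 15.68 in the arrays labelled Mrp4-null and at 15.57, 15.75, 15.48 and 15.67 in WT. The groups overlapped, with the null arrays spanning almost the whole range, and the means were 15.48 ± 0.20 and 15.62 ± 0.12 (SD, n = 4 each). The log2 fold change was -0.14 (95% interval -0.40 to 0.13, limma adjusted p = 1.00), which is 9.0% lower. It was -0.06 without null 3 and -0.20 without null 4. The dimmer probe (A_51_P481147) was at 11.07, 10.86, 10.91 and 11.06 against 11.33, 11.23, 10.89 and 10.97 in WT, also overlapping, with a log2 fold change of -0.13 (-0.40 to 0.13), which was -0.06 without WT 1 and -0.20 without WT 3.

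For the middle-wavelength opsin Opn1mw, the brighter probe (A_55_P1965876) was at 13.61, 13.77, 13.74 and 13.57 in the arrays labelled Mrp4-null and at 13.75, 13.49, 13.70 and 13.48 in WT. The WT arrays formed a high pair (WT 1 and WT 3) and a low pair (WT 2 and WT 4), and the null arrays ran from above the low pair to just above the high pair. Means were 13.67 ± 0.10 and 13.60 ± 0.14 (SD, n = 4 each), and the log2 fold change was 0.07 (-0.15 to 0.29). It ranged from 0.03 (without WT 4) to 0.12 (without WT 1) when 1 array was left out. The second probe (A_66_P121951) had the same order of WT arrays, at 11.22, 10.94, 11.13 and 10.91, against 11.14, 11.27, 11.21 and 10.94, with a log2 fold change of 0.09 (-0.15 to 0.34), or 0.04 without WT 4 and 0.16 without null 4. In the high pair, WT 1 had Xist and no Y-linked signal and WT 3 the reverse. In the low pair, WT 2 had both and WT 4 had Y-linked signal only. The part of sex in the Opn1mw values was not tested.

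The ratio of the opsins within an array, brighter probe over brighter probe, was computed because the opsins share most cones. Its level reflects the probes, and only its difference between arrays is read. The log2 ratio of Opn1mw to Opn1sw was -2.003, -1.62, -1.52 and -2.12 in the arrays labelled Mrp4-null and -1.83, -2.26, -1.79 and -2.19 in WT. The highest arrays were null 3 and null 2, while null 1 and null 4 lay among the WT arrays. The difference of 0.20 (SE 0.19) was smaller than the spread between arrays (exact two-sided permutation test, p = 0.371, adjusted p = 0.584 over the 11 ratios computed). It was 0.10 without null 3, 0.12 without WT 2 and 0.31 without null 4.

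**Figure D2:**
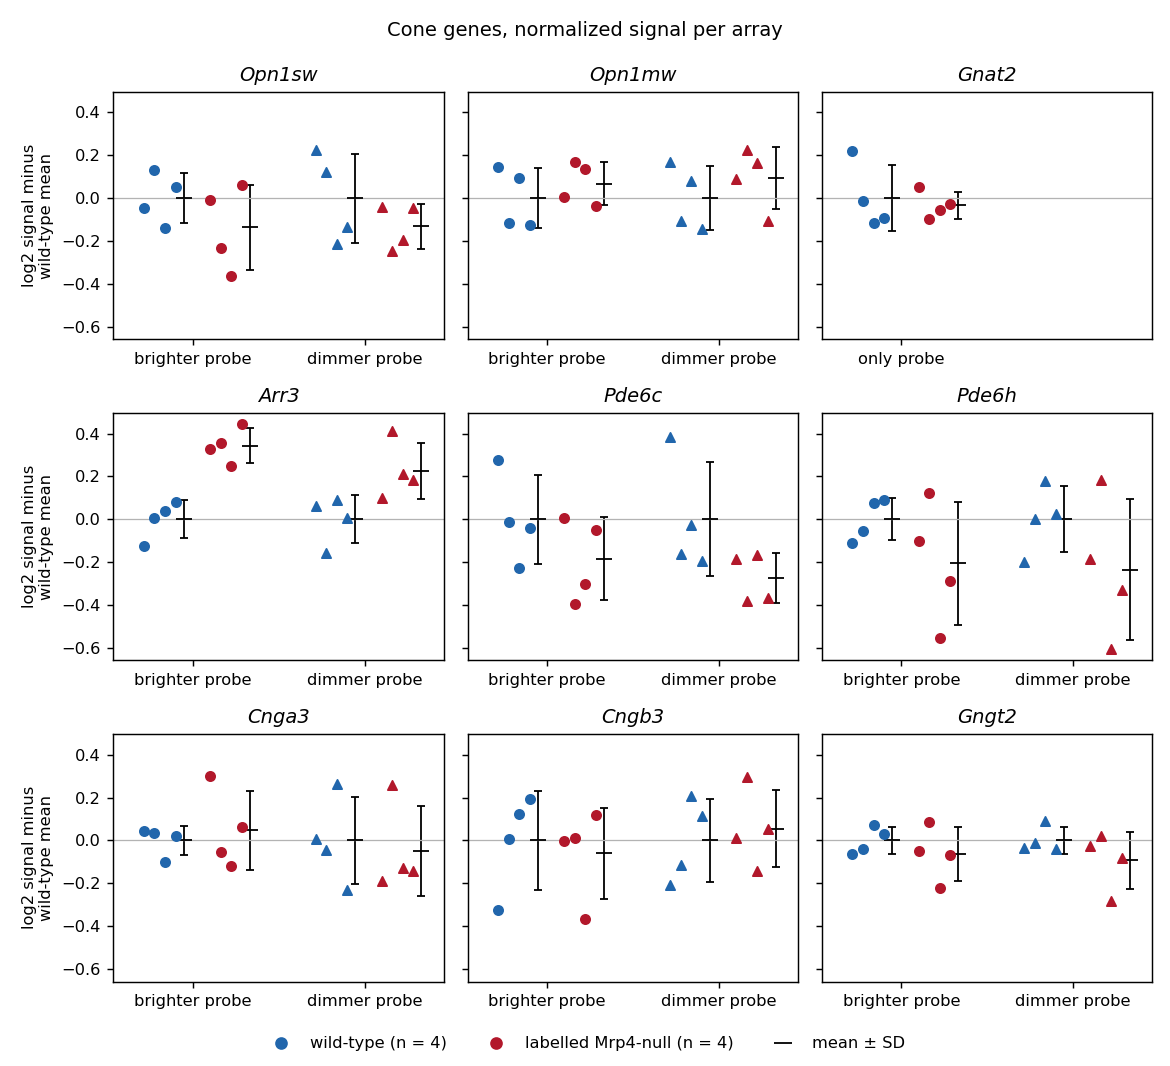
Normalized log2 intensity of each cone probe minus its wild-type mean, on each of the 4 wild-type arrays (blue) and 4 arrays labelled Mrp4-null (red), with the mean ± SD of each group in black; circles are the brighter or only probe of a gene and triangles the dimmer one. The groups overlap for every gene except Arr3, where the arrays labelled Mrp4-null lie above all wild-type arrays.

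Transducin carries the signal from opsin to phosphodiesterase. Gnat2, its cone alpha subunit, was at 14.64, 14.49, 14.53 and 14.55 in the arrays labelled Mrp4-null and 14.81, 14.57, 14.47 and 14.49 in WT, with a log2 fold change of -0.03 (-0.25 to 0.18). WT 1 stood above the rest and the other 7 arrays lay close together. Gngt2, the cone gamma subunit, was at 14.96, 15.10, 14.79 and 14.95 against 14.95, 14.98, 15.08 and 15.04 on its brighter probe (A_55_P2151986). The null arrays held both the highest and the lowest value, and the log2 fold change was -0.06 (-0.26 to 0.13), or -0.01 without null 3 and -0.11 without null 2. The dimmer probe (A_55_P2482103) repeated this order among the null arrays and gave -0.09 (-0.29 to 0.11), or -0.03 without null 3.

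The phosphodiesterase subunits had the lowest fold changes of the set, though neither met the test. Pde6c, the catalytic subunit of the cone enzyme, was at 13.63, 13.23, 13.32 and 13.58 in the arrays labelled Mrp4-null and 13.90, 13.61, 13.40 and 13.59 in WT on its brighter probe (A_66_P134394). WT 1 was highest and the groups overlapped, with a log2 fold change of -0.19 (-0.49 to 0.12, limma adjusted p = 1.00), which was -0.09 without WT 1 and -0.11 without null 2. The dimmer probe (A_52_P286253) was at 9.62, 9.42, 9.64 and 9.44 against 10.19, 9.64, 9.78 and 9.61, with a log2 fold change of -0.27 (-0.59 to 0.04, limma adjusted p = 0.866). WT 1 again stood above the others, and without it the value was -0.15.

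Pde6h, the inhibitory subunit of the cone enzyme, was at 15.18, 15.40, 14.72 and 14.99 in the arrays labelled Mrp4-null and 15.17, 15.22, 15.36 and 15.37 in WT on its brighter probe (A_55_P2001518). The null arrays were widely spread (SD 0.29) around a narrow WT group (SD 0.10), with null 2 the highest and null 3 the lowest of all 8. The log2 fold change was -0.21 (-0.53 to 0.12, limma adjusted p = 1.00). Without null 3 it was -0.09, and without null 2 it was -0.32. The other probe (A_55_P2741263) had the same high and low null arrays, at 14.38, 14.75, 13.96 and 14.23 against 14.37, 14.56, 14.74 and 14.59, and a log2 fold change of -0.23 (-0.61 to 0.14), which was -0.11 without null 3 and -0.37 without null 2.

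The cyclic nucleotide-gated channel of cones is built from Cnga3 and Cngb3, and its 4 probes gave values of either sign near 0. Cnga3, the principal subunit, was at 9.83, 9.48, 9.41 and 9.59 in the arrays labelled Mrp4-null and 9.58, 9.57, 9.43 and 9.55 in WT on its brighter probe (A_55_P1991004), with a log2 fold change of 0.05 (-0.19 to 0.28). The groups overlapped and null 1 was the only array set apart. The dimmer Cnga3 probe (A_55_P2931277) gave -0.05 (-0.36 to 0.26). Cngb3, the modulatory subunit, was at 9.23, 9.24, 8.86 and 9.35 against 8.90, 9.24, 9.35 and 9.42 on its brighter probe (A_55_P2153331), with a log2 fold change of -0.06 (-0.39 to 0.27). One array of each genotype, null 3 and WT 1, was low and the other 6 lay together. The dimmer Cngb3 probe (A_55_P2814138) gave 0.06 (-0.24 to 0.35), and every 1 of these 4 values changed sign when some single array was left out.

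Arr3, which quenches the activated cone opsins, was the member with the largest difference. Its brighter probe (A_55_P2499623) was at 15.30, 15.32, 15.22 and 15.41 in the arrays labelled Mrp4-null and 14.84, 14.97, 15.01 and 15.05 in WT. The groups did not overlap, with means of 15.31 ± 0.08 and 14.97 ± 0.09 (SD, n = 4 each). The log2 fold change was 0.34 (0.16 to 0.53), or 1.27-fold, with a limma adjusted p of 0.192, so it did not pass. The second probe (A_51_P193821) was at 11.62, 11.93, 11.73 and 11.70 against 11.58, 11.36, 11.61 and 11.52, again with no overlap, and its log2 fold change was 0.23 (0.01 to 0.44, limma adjusted p = 0.746). Absence of overlap was found for 2 of the 17 cone probes and 4.79% of all retained probes, and the brighter Arr3 probe ranked 468 by p of the 37085.

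The Arr3 difference lay between 0.28 and 0.36 on the brighter probe under every alternative processing tried and between 0.30 and 0.37 when any single array was left out. With an intensity trend and robust variances in limma its adjusted p was 0.0478, still below 1.5-fold. Other settings gave weaker tests. With the 75th percentile shift the limma p was 0.0394 unadjusted and 0.708 adjusted. With the sample number as a replicate block the limma adjusted p was 0.703. Among probes placed on the X chromosome, where Arr3 lies, 33.9% of 817 were higher in the arrays labelled Mrp4-null and 4.77% did not overlap, against 44.2% and 4.69% of 22834 probes on other chromosomes. WT 1, which had Xist and no Y-linked signal like the null arrays, had the lowest Arr3 value of all 8 on the brighter probe (14.84). On the second probe it had the second highest WT value (11.58), just under the lowest null array (11.62), and WT 2 was lowest (11.36). The part of sex in the difference was not tested.

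**Figure D3:**
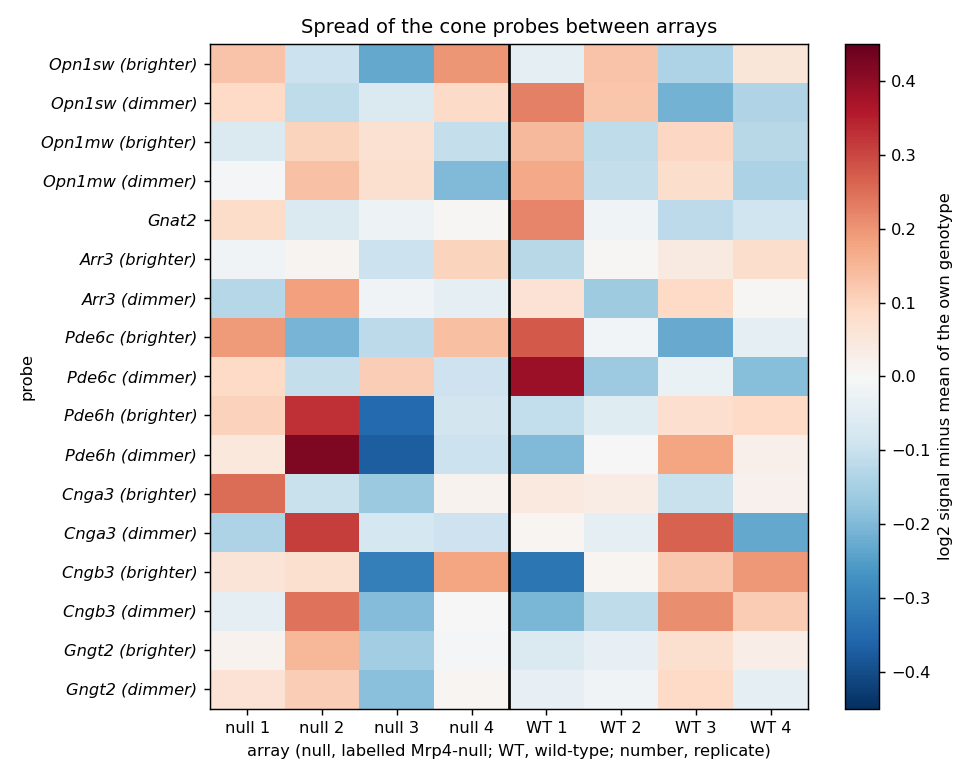
Deviation of each cone probe from the mean of its own genotype (log2, red above and blue below) on each of the 8 arrays. The third array labelled Mrp4-null had 14 of its 17 probes below its group mean, and the first and second had 11 above. The same shares over all retained probes were not computed.

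Within a genotype the cone probes had a median SD between arrays of 0.16, against 0.19 for all retained probes. Null 3 had 14 of the 17 probes below the mean of its genotype (median deviation -0.12), and both probes of Pde6h, Gngt2 and Cngb3 were lowest there among the null arrays. Null 1 and null 2 each had 11 of 17 above. The same shares over all retained probes were not computed, so whether these counts are particular to the cone probes is not known. Null 2 was also the dimmest null array by its upper quartile (497), and WT 3 the dimmest WT array (514). When both were left out, in a comparison added after the data were seen, 0 cone probes were called and no cone probe changed sign. The mean of the 9 genes per array, each by its brightest probe, was 13.32 to 13.55 in the arrays labelled Mrp4-null and 13.48 to 13.52 in WT.

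The 8 genes with 2 probes give a check inside each array. Both probes had the same sign in 6 of them: lower for Opn1sw, Gngt2, Pde6c and Pde6h, and higher for Opn1mw and Arr3. Cnga3 and Cngb3 had 1 probe of each sign. The log2 fold changes of the 2 probes of a gene differed by 0.004 to 0.12, and the smallest exact permutation p for such a difference was 0.314.

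Rods run the same cascade with their own subunits, and cone genes were set against their rod counterparts within the array. The rod genes also had small differences: by their brightest probes, the log2 fold changes were 0.01 for the transducin subunit Gnat1, 0.02 for Gngt1, 0.05 and 0.10 for the catalytic subunits Pde6a and Pde6b, -0.04 for the inhibitory subunit Pde6g and 0.06 for the channel subunit Cnga1. The furthest from 0 were the channel subunit Cngb1 at -0.24 (limma adjusted p = 0.389) and the rod arrestin Sag at 0.24 (limma adjusted p = 0.816). Of the 11 rod cascade genes 7 were higher and 4 lower, with a median of 0.02 over the genes. Limma and the local pooled error test each called 0 of their 16 probes, with 1 probe at an unadjusted limma p under 0.05 (6.46% of all retained probes).

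With 4 against 4 arrays the smallest exact p is 0.0286, and a single ratio at that p has an adjusted p of 0.314 over the 11 ratios, so no ratio could pass alone and the adjusted values say little. Gngt2 over Gngt1 had the smallest p. This log2 ratio was -1.47, -1.46, -1.48 and -1.42 in the arrays labelled Mrp4-null and -1.33, -1.39, -1.35 and -1.41 in WT, so that every null array was below every WT array by a small margin. The difference was -0.09 (SE 0.02, exact permutation p = 0.0286, adjusted p = 0.314). The arrays overlapped with the 75th percentile shift (-0.08, exact permutation p = 0.0857), with normexp (-0.06, exact permutation p = 0.143) and over every retained probe of the genes (-0.10, exact permutation p = 0.0571). They stayed apart with cyclic loess, with outlier spots kept and with the deposited values (-0.09 and exact permutation p = 0.0286 in each). Pde6c over Pde6b differed by -0.29 (SE 0.13, exact permutation p = 0.0571, adjusted p = 0.314), or by -0.33 over every retained probe (exact permutation p = 0.0286, adjusted p = 0.157), and Pde6c over Pde6a by -0.23 (SE 0.11, exact permutation p = 0.114, adjusted p = 0.419).

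The Arr3 ratio to Sag differed by 0.10 (SE 0.16, exact permutation p = 0.514), less than Arr3 itself, since Sag was higher too. The other ratios were -0.04 for Gnat2 over Gnat1, -0.16 for Pde6h over Pde6g, -0.01 for Cnga3 over Cnga1 and 0.18 for Cngb3 over Cngb1. Without null 3 the Arr3 ratio was 0.21 and the Pde6h ratio -0.04, and without WT 1 the former was -0.01 and the Cngb3 ratio 0.03. The groups overlapped in each, with exact permutation p from 0.371 to 0.943.

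**Figure D4:**
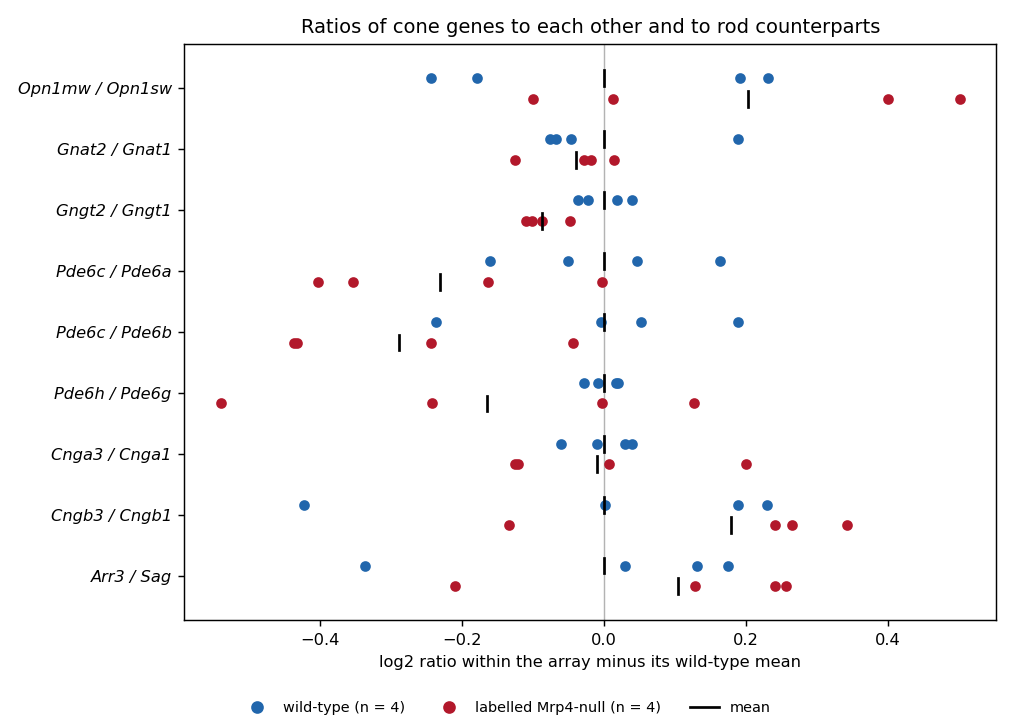
Log2 ratio of cone genes to their rod counterparts, and of Opn1mw to Opn1sw, on each array, minus the wild-type mean of that ratio; blue points are the 4 wild-type arrays, red points the 4 arrays labelled Mrp4-null and black ticks the group means. Groups overlap for the ratios except Gngt2 over Gngt1, where the arrays labelled Mrp4-null are lower by a mean of 0.09.

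Among 16 genes that work alongside the cascade, 10 were higher and 6 lower, with a median of 0.01, and limma and the local pooled error test each called 0 of their 26 probes. At an unadjusted limma p under 0.05 there were 3, against 6.46% of all retained probes. One of them was of Grk1, the kinase that phosphorylates light-activated opsin in rods and in mouse cones, which has to act before arrestin binds. It was at 14.96, 15.01, 15.10 and 15.03 against 15.63, 15.31, 15.47 and 15.25, without overlap, which holds for 4.79% of all probes, and with a log2 fold change of -0.39 (limma adjusted p = 0.243). Arr3 and Grk1 thus differed in opposite directions, neither past the test.

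Of 12 genes that regulate cone identity or opsin choice, 11 were retained, 5 higher and 6 lower, with a median of -0.01. None of their 16 probes was called by limma or by the local pooled error test, and 0 had an unadjusted limma p under 0.05. Thrb, the thyroid hormone receptor needed for the middle-wavelength opsin, had log2 fold changes of 0.20 and 0.18 on its 2 probes, and its partner Rxrg, which holds back the short-wavelength opsin, was at -0.17. Crx was at 0.02, the rod determinant Nrl at -0.01, its target Nr2e3 at -0.14 and the SUMO ligase Pias3 at -0.16. The homeobox factor Otx2 was at -0.03, the nuclear receptors Nr2f1, Nr2f2 and Rxra at 0.06, 0.08 and -0.04, and the zinc finger factor Sall3 at 0.03. Among 5 further genes known to be enriched in cones, of which Gnb3 is also among the 16 above, 4 were higher and 1 lower, and none of their 9 probes was called by limma or the local pooled error test. The lower gene, Otop3, a proton channel gene, had log2 fold changes of -0.48 and -0.54 on its 2 probes (limma adjusted p = 0.473 and 0.456), both with overlapping groups. They were the 2 of the 9 probes with an unadjusted limma p under 0.05, against 6.46% of all retained probes, 2.94% lower.

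Beside these, 16 of 17 lens marker genes were retained and the median log2 fold change was -1.39, with all 16 lower in the arrays labelled Mrp4-null. The mean of the lens list was 6.51 to 8.57 in those arrays and 7.58 to 9.85 in WT. Limma called 0 of their 21 probes (0.545% of all probes), with 8 at an unadjusted p under 0.05 (6.46% of all), and the local pooled error test called 17 (0.623% of all). The part of lens RNA in the cone values was not tested. List means of Muller glia were 13.29 to 13.45 and 13.40 to 13.47, of bipolar cells 13.39 to 13.58 and 13.34 to 13.50, of pigment epithelium 8.04 to 8.38 and 8.01 to 8.47, of amacrine and horizontal cells 11.71 to 11.75 and 11.72 to 11.78, and of blood 8.86 to 9.96 and 8.85 to 9.97, overlapping in each case. Of 9 ganglion cell genes 8 were lower, and 14 of their 15 probes (93.3%, against 53.2% of all probes), with a median of -0.14 and list means of 12.01 to 12.15 against 12.13 to 12.27. Limma and the local pooled error test each called 0 of the 15 ganglion cell probes, with 2 at an unadjusted limma p under 0.05 (6.46% of all probes). Of 18 bipolar cell probes 3 were lower (16.7%), 4 had an unadjusted limma p under 0.05, all of them higher, and 0 were called by limma or the local pooled error test. The 3 without overlap (4.79% of all probes) had log2 fold changes of 0.24 for Grm6, 0.40 for Prkca and 0.37 for Trpm1, but the brightest probes of Prkca and Trpm1 overlapped, at 0.02 and 0.20. Of 8 Muller glia genes 4 were higher and 4 lower, with a median of -0.01, and only the 2 probes of Aqp4, a water channel, of the 13 were without overlap, at -0.36 and -0.39 (limma adjusted p = 0.202 and 0.362). The part of these cells in the cone values was not tested.

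The opsins' profiles over the 8 arrays were compared with those of the retained, named probes of other genes by the root mean square difference of centred log2 values. Nearest to Opn1sw were Tnfaip3 (0.036), Gng2, Atp23, Eapp and Zfp960 (0.046), and nearest to Opn1mw were Fam160b1 (0.020), Vps8, Cyb561, Pagr1a and Zfp862-ps (0.028). No cone gene was among them. Of 23642 probes, the opsin's own second probe left out, the best placed cone probe was the brighter Cnga3 probe for Opn1sw, at rank 3068, and the second Arr3 probe for Opn1mw, at rank 3344. Opn1mw itself was at rank 14136 for Opn1sw.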

How the data were processed

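Total RNA of 8 retinal samples was labelled with Cy3 and hybridised to 8 arrays of 1 slide, and the authors deposited each scanner output, made with Agilent Feature Extraction 11.0.1.1. The deposited intensity values used were the processed signal, which is background-subtracted, and, in an alternative, the spot signal and background median; deposited flags mark outlier spots and spots well above background. Outlier spots were left out and spots of a probe averaged, and log2 values were quantile normalized; the log scale and the quantile method follow the study's methods, while the treatment of outlier spots and the filter below were chosen here. Probes were kept if either genotype had them well above background on all its measured arrays (37085 of 56605), and probes of a gene were kept apart. Probes were named through the accession in the files and a RefSeq table, which named 32994 probes (58.3%).

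Genotypes were compared with limma 3.58.1 in R 4.3.3 (lmFit and eBayes, genotype the only term), and p-values were Benjamini-Hochberg adjusted over all retained probes; calls needed a 1.5-fold difference with adjusted p under 0.05. As an alternative, the study's local pooled error test was rebuilt. Ratios within an array were compared by exact permutation over the 70 groupings. The analysis was tested on simulated data. The cone members, the gene lists and the tests were chosen with earlier results of these data known. The text names every cone probe, rod counterparts, cone transcription factors, genes that limma called in the rod, partner, regulator and cone-enriched lists (there were 0) and the 5 probes nearest each opsin; Grk1, Otop3, Gnb3, Grm6, Prkca, Trpm1 and Aqp4 were named after their values were seen. Some items that were tested are not reported here. Promoters and motifs are descriptions, chosen likewise. The number of arrays limits the precision, and no probe was saturated. Deposited processed values of the series served as an alternative.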

Additional observations from a re-analysis of the deposited data

Results flagged for a closer look

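In 2 of 56 groups of 4 arrays screened, 1 array stood apart from the other 3 by a gap past Dixon's 95% critical value, and chance gives about 1 such group in 20. On the dimmer Cnga3 probe, null 2 was at 7.59 while the other arrays labelled Mrp4-null were at 7.14 to 7.20, a gap of 0.869 of the range. For the log2 ratio of Gnat2 to Gnat1, WT 1 was at -2.57 while the other WT arrays were at -2.84 to -2.81, a gap of 0.889 of the range.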

How the results depend on the processing

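Under all alternatives run, 0 cone probes were called. Every rule, except that on the adjusted p alone, asked for a 1.5-fold difference, a log2 value of 0.585. The cone probes stayed between -0.37 and 0.37, so the fold threshold fixed these zeros and they do not show stability. By adjusted p alone, the brighter Arr3 probe was at 0.0478 in limma with an intensity trend and robust variances. No ratio passed in any alternative, but the exact test on so few arrays could not carry a single ratio past adjustment over the 11, so this says nothing about their stability. The count over all retained probes, 202, was 71 with the sample number as a replicate block, 117 to 188 with any 1 array left out, 128 without both arrays of low signal (added after the data were seen) and 699 by fold change alone. Same-numbered arrays lay in the same column of the slide. Their deviations correlated at -0.29, -0.69, 0.03 and 0.41, and not every array correlated best with its own number. These values cannot tell whether the numbers pair the samples, since arrays of like signal also correlated. Null 2 and WT 3, the dimmest array of each genotype, were at 0.71. The blocked fit left the cone fold changes as they were, all below 1.5-fold, so it could not change a call of a cone probe. Some small values changed sign. Cnga3 over Cnga1 was 0.0521 with the 75th percentile shift, 9.52e-05 with cyclic loess and 0.0606 with normexp. Gnat2 over Gnat1 was 0.00587 with normexp, and Cngb3 over Cngb1 was -0.0196 over every retained probe. With 1 array left out, log2 fold changes spanned -0.0708 to 0.0417 for Gnat2, -0.0380 to 0.102 and -0.155 to 0.0390 for the Cnga3 probes, and -0.168 to 0.0431 and -0.0255 to 0.126 for the Cngb3 probes. The ratios spanned -0.0787 to 0.0289 for Cnga3 over Cnga1, -0.0638 to 0.0237 for Gnat2 over Gnat1 and -0.0129 to 0.205 for Arr3 over Sag, and 0.104 to 0.307 for Opn1mw over Opn1sw. The cause of these changes was not tested. All cone probes lay well above background, and the number of arrays limits the precision.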
